A study of Homo sapiens with 6 samples.

Results

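The genes described here are 10 members of the S100 family of calcium-binding proteins other than S100A8 and S100A9, the pair that forms calprotectin. They are S100A2, S100A3, S100A4, S100A6, S100A10, S100A11, S100A13, S100A14, S100A16 and S100P, chosen by symbol from the 50867 genes of the expression table. The lines studied by sequencing of messenger RNA, UM-UC-3 and 5637, are established human bladder cancer cell lines. Each line received a lentiviral hairpin, either sh-NC (a negative control) or one of sh-LNMAT1#1 and sh-LNMAT1#2 (against the long noncoding RNA LNMAT1). Infection, helped by polybrene, lasted 24 h and puromycin selection 2 weeks. The 6 stably carrying cultures gave 6 libraries, 1 for each hairpin and line, and UM-UC-3 was grown in Dulbecco's modified Eagle's medium while 5637 was grown in RPMI medium, so that line and medium cannot be told apart. Values are FPKM, fragments scaled to gene length and library depth, and the depth recovered from single-exon genes was 19375000 to 24707000 fragments per library. Within each line, levels are listed for sh-NC first, then for sh-LNMAT1#1 and then for sh-LNMAT1#2.

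S100 proteins are small EF-hand proteins, found in vertebrates, that mostly act as dimers and on binding calcium expose a surface that grips partner proteins such as annexins, p53 or myosin. Some are also secreted and signal through receptors such as RAGE, the product of AGER. Most of their genes lie side by side on chromosome 1 in the epidermal differentiation complex, the region that also holds the cornified envelope genes of squamous epithelium, and several S100 proteins are used as markers of squamous or luminal epithelium in bladder tumours.

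The library labelled 5637 sh-NC stood apart from the other 5637 libraries. Over the 12716 genes kept (mean of 1 FPKM or more over the 6 libraries), its log2 values correlated with UM-UC-3 sh-LNMAT1#1 at r = 0.985 and with the 5637 sh-LNMAT1#1 and sh-LNMAT1#2 libraries at r = 0.617 and 0.622, which describes points that share a library and is no test. KRT19, a keratin of simple epithelia, was 300 and 409 FPKM in the 5637 knockdown libraries and 0.0729 FPKM for the library labelled 5637 sh-NC, beside 0.0629 to 0.113 FPKM in UM-UC-3. Of 7 epithelial markers (EPCAM, CDH1, KRT5, KRT7, KRT8, KRT18 and KRT19), all 7 were at least 2-fold higher in both 5637 knockdown libraries than in that library, and their summed level was 700 and 945 FPKM against 26.7 FPKM there and 21.3 to 30.9 FPKM in UM-UC-3. Of all genes kept, 18.7% and 17.5% were so with sh-LNMAT1#1 and sh-LNMAT1#2. Only 2 of the 7 markers reached a mean of 1 FPKM over the libraries other than 5637 knockdown. The rest were kept for being high in the 5637 knockdown libraries, so that their direction was fixed by the filter. The summed level of 5 mesenchymal markers was 122 and 119 FPKM in the 5637 knockdown libraries, 139 FPKM for the library labelled 5637 sh-NC and 157 to 364 FPKM in UM-UC-3. Among them, the filament gene VIM was 3.85 and 4.14 FPKM in the 5637 knockdown pair and 103 FPKM with the label 5637 sh-NC, while the fibronectin gene FN1 was 110 and 102 FPKM in that pair and 0.884 FPKM with that label. The other mesenchymal markers, CDH2, ZEB1 and ZEB2, were lower in that pair, like VIM. They were 8.18 and 11.9, 0.0264 and 0.00774, and 0.174 and 0.169 FPKM there, against 21.5, 12.6 and 1.15 FPKM with that label. Of the urothelial markers, UPK1B was listed at 0 in all 6 libraries and UPK2, UPK1A and UPK3A stayed at or under 0.556 FPKM, while the factors GATA3 and PPARG were both at least 2-fold higher in the 5637 knockdown pair, at 5.99 and 5.02 FPKM and at 16.6 and 16.8 FPKM. GATA3 was kept only for being high in that pair, so that its direction is no result. Summed leukocyte markers reached at most 0.661 FPKM and endothelial markers at most 0.284 FPKM. LNMAT1, listed as LINC01296, was 14.2, 6.2 and 6.7 FPKM in the UM-UC-3 libraries, and 11.7, 4.7 and 2.14 FPKM in the corresponding 5637 libraries. Every 5637 knockdown difference below rests on the library labelled 5637 sh-NC, and why it resembles UM-UC-3 was not tested.

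The same resemblance held in the S100 genes themselves. The mean absolute difference of log2(FPKM + 0.5) between the library labelled 5637 sh-NC and UM-UC-3 sh-LNMAT1#1 was 0.28 over the 10 genes, against 2.10 and 2.65 to the 5637 sh-LNMAT1#1 and sh-LNMAT1#2 libraries. In 9 of the 10 genes the library labelled 5637 sh-NC was nearer to UM-UC-3 sh-LNMAT1#1 than to UM-UC-3 sh-NC, as it was in 74.3% of all genes kept.

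All but S100P lie on the minus strand of chromosome 1 of GRCh38, and S100P lies on chromosome 4. From S100A10 (ENSG00000197747, 151982915-151994390) and S100A11 (ENSG00000163191, 152032506-152047907) there is a gap to S100A6 (ENSG00000197956, 153534599-153536244), which begins 1551.7 kb from S100A10. S100A4 (ENSG00000196154, 153543613-153550136) and S100A3 (ENSG00000188015, 153547329-153549372) overlap on the same strand, so their reads could be split between them and both levels are uncertain. S100A2 (ENSG00000196754, 153561108-153567890), S100A16 (ENSG00000188643, 153606886-153613145), S100A14 (ENSG00000189334, 153614255-153616986) and S100A13 (ENSG00000189171, 153618787-153631360) follow. S100P (ENSG00000163993) spans 6693069-6697170 of chromosome 4 on the plus strand. S100A13 overlaps AL162258.1 on its own strand, so its level is uncertain in the same way. S100A6, S100A11 and S100A13 also overlap genes on the opposite strand, and whether the counting used strand is not given in the sources used here.

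Upstream sequences are shown for a gene high only in the 5637 knockdown libraries (S100A2), its neighbour S100A3, the gene that did not follow the lines (S100A16) and the most abundant one (S100A11). They are the stretches of the 250 bases before a RefSeq start that lie outside annotated exons, on the gene's strand of GRCh38.p14. The S100A2 stretch is chr1:153565866-153566094, S100A3 is chr1:153549373-153549508, S100A16 is chr1:153613146-153613387 and S100A11 is chr1:152037036-152037254. The S100A2 and S100A11 stretches are intronic to longer transcripts of their own genes, that of S100A3 lies within an intron of S100A4, and that of S100A16 ends where the gene begins and overlaps no annotated gene. The S100A11 stretch is also intronic to AL450992.1. Capitals mark matches on either strand to 5 motifs, the TATA box (TATAAA), AP-1 (TGANTCA), the E-box bound by ZEB and SNAI factors (CACCTG), the GC box (GGGCGG) and C/EBP (TTGCNNAA).
S100A2: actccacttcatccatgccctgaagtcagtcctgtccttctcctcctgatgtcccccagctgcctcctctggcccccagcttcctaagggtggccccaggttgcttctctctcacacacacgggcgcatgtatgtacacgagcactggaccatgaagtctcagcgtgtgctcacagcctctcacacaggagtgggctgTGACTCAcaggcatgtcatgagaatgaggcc
S100A3: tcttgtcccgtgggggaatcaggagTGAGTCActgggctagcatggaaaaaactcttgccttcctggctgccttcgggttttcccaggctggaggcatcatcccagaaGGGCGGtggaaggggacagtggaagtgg
S100A16: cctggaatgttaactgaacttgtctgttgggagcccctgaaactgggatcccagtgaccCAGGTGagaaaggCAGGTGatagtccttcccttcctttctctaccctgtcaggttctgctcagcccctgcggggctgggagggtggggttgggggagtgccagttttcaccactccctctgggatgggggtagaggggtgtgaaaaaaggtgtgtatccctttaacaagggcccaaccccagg
S100A11: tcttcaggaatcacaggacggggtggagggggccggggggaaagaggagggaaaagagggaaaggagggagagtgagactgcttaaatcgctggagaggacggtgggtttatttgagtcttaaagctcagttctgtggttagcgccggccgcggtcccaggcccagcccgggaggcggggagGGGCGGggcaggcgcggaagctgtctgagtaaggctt

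RefSeq gave 14 such windows of 250 bases for the 10 genes. The AP-1 letters were in 1 window of S100A2, 52 bases before the start, and in the S100A3 window, 225 bases before it, and 6.57% of all 35116 windows of this length held them. The E-box letters, held by 17.5% of all windows, were in windows of S100A2, S100A4, S100A14, S100A16 and S100P, and stood at 191 and 178 bases before the S100A16 start shown. The GC box, held by 42.6%, was in windows of S100A3, S100A6, S100A10, S100A11, S100A13 and S100A16, and stood 68 bases before the S100A11 start and 142 before the S100A3 start. A TATA box, in 10.7% of all windows, was found 31, 29 and 28 bases before a start of S100A4, S100A13 and S100P. The C/EBP letters, in 9.05% of all windows, were found in S100A11 alone, at 33 bases, across the edge of the stretch shown. These matches describe letters in the windows and no binding was measured.

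**Figure D1:**
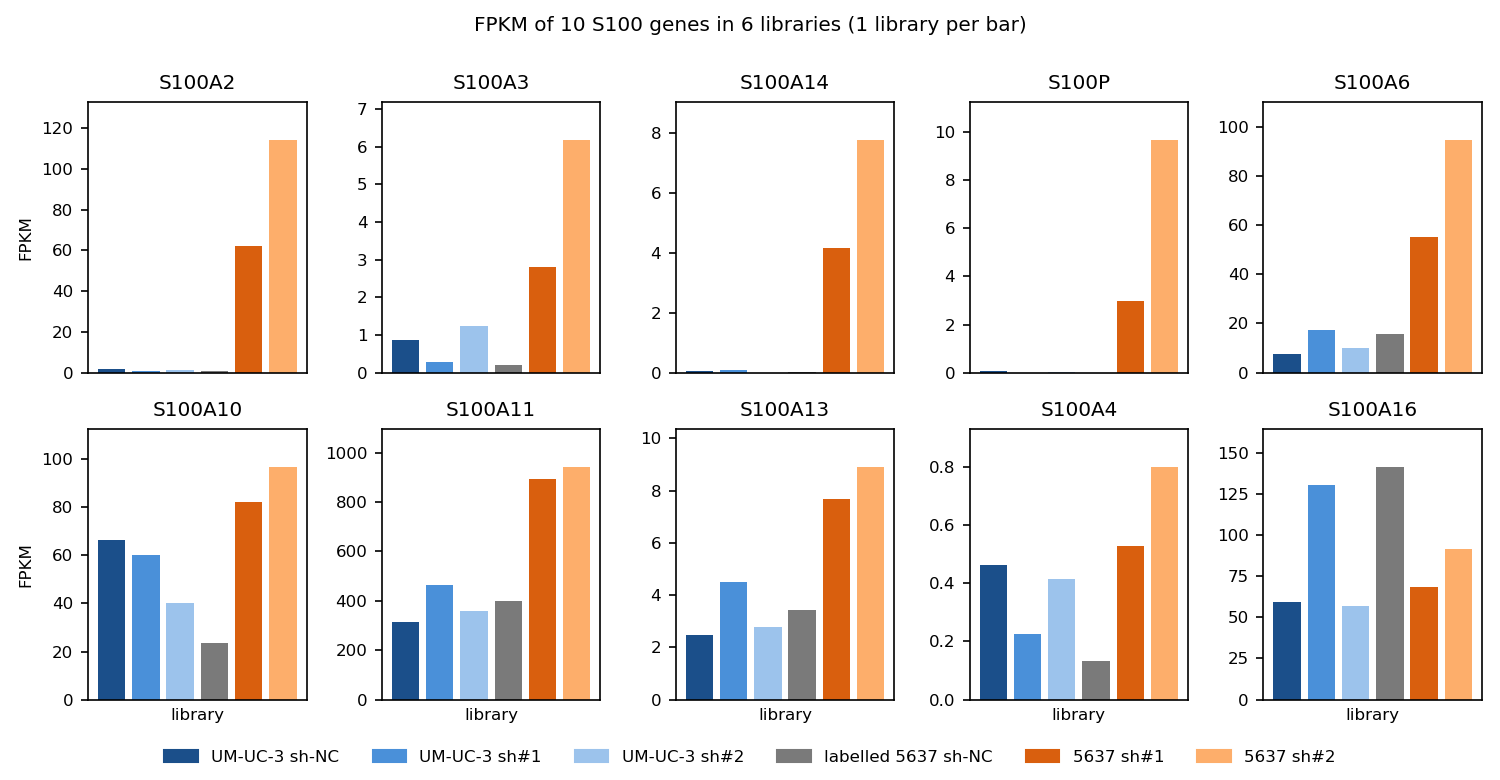
FPKM (vertical axis from 0, with its own scale in each panel) of each of the 10 S100 genes, with 1 bar per library and no error because each bar is 1 library. In 9 of the 10 panels both orange bars (5637 sh-LNMAT1#1 and sh-LNMAT1#2) are the tallest, and in S100A16 the tallest are the grey bar (the library labelled 5637 sh-NC, 141 FPKM) and UM-UC-3 sh-LNMAT1#1 (130 FPKM).

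S100A2, S100A14 and S100P were the genes whose levels differed most over the 6 libraries. S100A2, a nuclear S100 protein of basal and squamous epithelium that binds p53 family members, was 1.84, 0.822 and 1.48 FPKM in the UM-UC-3 libraries. It was 0.998 FPKM for the library labelled 5637 sh-NC, 62.3 FPKM in 5637 sh-LNMAT1#1 and 114 FPKM in 5637 sh-LNMAT1#2. The pair of 5637 knockdown libraries did not overlap the other 4, and the lower of them was over the highest of the others, 1.84 FPKM. TP63, which encodes a p53 family factor of basal epithelium, was 0.108 to 0.238 FPKM in UM-UC-3, 0.0788 FPKM for the library labelled 5637 sh-NC and 11.7 and 13.9 FPKM in the 5637 knockdown libraries.

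S100A14, an S100 protein of epithelial cells, was 0.0596 and 0.0827 FPKM with sh-NC and sh-LNMAT1#1 in UM-UC-3, was listed at 0 in UM-UC-3 sh-LNMAT1#2 and was 0.0328 FPKM for the library labelled 5637 sh-NC. These 4 values correspond to under 3 fragments each, the limit that a count of 0 allows, which covers counting error only. It was 4.14 FPKM in 5637 sh-LNMAT1#1 and 7.74 FPKM in 5637 sh-LNMAT1#2, at least 13.8-fold and 25.7-fold higher than in UM-UC-3 sh-LNMAT1#2, taking the limit of 3 fragments in that library. S100P, which binds ezrin and RAGE, was 0.0763 and 0.0274 FPKM with sh-NC and sh-LNMAT1#2 in UM-UC-3, again under 3 fragments, and listed at 0 in UM-UC-3 sh-LNMAT1#1 and the library labelled 5637 sh-NC. It was 2.96 and 9.66 FPKM in 5637 sh-LNMAT1#1 and sh-LNMAT1#2, at least 6.93-fold and 22.6-fold higher than in the library labelled 5637 sh-NC. Its partner EZR was 25 to 35.9 FPKM in UM-UC-3, 33.6 FPKM for the library labelled 5637 sh-NC and 78.3 and 71.1 FPKM in the 5637 knockdown libraries, while AGER stayed between 0.451 and 0.977 FPKM in all 6.

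S100A3, a cysteine-rich protein of the hair cuticle, was 0.879, 0.279 and 1.25 FPKM in the UM-UC-3 libraries, and 0.207 FPKM for the library labelled 5637 sh-NC. It was 2.8 and 6.17 FPKM in the 5637 knockdown libraries, which did not overlap the others. Its neighbour S100A4, which binds the nonmuscle myosin heavy chain encoded by MYH9 and is known for its link to metastasis, was 0.464, 0.224, 0.413, 0.133, 0.527 and 0.798 FPKM over the UM-UC-3 and then the 5637-labelled libraries. All 6 values were low, and the mean of 0.427 FPKM was under the filter of 1 FPKM. Tested in limma without a filter, S100A4 had a pooled knockdown difference of 0.31 (adjusted p = 0.815) and a difference between the lines of 0.51 (adjusted p = 0.301), and neither passed. MYH9 was 68.4 to 110 FPKM.

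S100A11 was the most abundant of the 10 in every library. It binds annexin A1 and was 314, 463 and 358 FPKM in the UM-UC-3 libraries, 400 FPKM for the library labelled 5637 sh-NC, and 894 and 940 FPKM in 5637 sh-LNMAT1#1 and sh-LNMAT1#2. It ranked between 45 and 57 among all genes by FPKM in the first 4 libraries (UM-UC-3 and the library labelled 5637 sh-NC) and 17 and 15 in the last pair, and it made 68.4% to 75.9% of the summed FPKM of the 10 genes. ANXA1 was 78.5 to 126 FPKM in the first 4 and 192 and 200 FPKM in the last pair. The ratio of S100A11 to ANXA1 was 2.84 to 4.76 in UM-UC-3 and 4.66 and 4.69 in the 5637 knockdown libraries, so the ranges overlapped.

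S100A10, which does not itself respond to calcium and forms a complex with annexin A2 at the cell membrane, was 66.2, 60.2 and 40 FPKM in the UM-UC-3 libraries. It was 23.7 FPKM for the library labelled 5637 sh-NC, the lowest of the 6, and 82.3 and 96.6 FPKM in 5637 sh-LNMAT1#1 and sh-LNMAT1#2, the highest. ANXA2 was lowest in that same pair, with 151 to 231 FPKM in UM-UC-3, 153 FPKM for the library labelled 5637 sh-NC and 116 and 135 FPKM in the 5637 knockdown libraries. The FPKM ratio of S100A10 to ANXA2 was 0.224 to 0.398 in UM-UC-3, 0.155 in the library labelled 5637 sh-NC and 0.71 and 0.715 in the 5637 knockdown libraries.

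S100A6 (calcyclin), which binds the calcyclin-binding protein CACYBP, was 7.58, 17.2 and 10.2 FPKM in UM-UC-3, 15.7 FPKM for the library labelled 5637 sh-NC and 55.2 and 94.5 FPKM in the 5637 knockdown libraries. CACYBP was 9.33 to 15.9 FPKM, with no such split. S100A13, which takes part in the export of FGF1, was 2.48, 4.51 and 2.79 FPKM in UM-UC-3, 3.44 FPKM for the library labelled 5637 sh-NC and 7.69 and 8.89 FPKM in the 5637 knockdown libraries. FGF1 was 1.14 to 2.66 FPKM in the first 4 and 0.0202 and 0.0108 FPKM in the last pair.

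S100A16, a widely expressed member, was the exception to the split. It was 59, 130 and 57.1 FPKM in the UM-UC-3 libraries, 141 FPKM for the library labelled 5637 sh-NC, and 68.1 and 91.2 FPKM in 5637 sh-LNMAT1#1 and sh-LNMAT1#2. The highest levels were thus in UM-UC-3 sh-LNMAT1#1 and the library labelled 5637 sh-NC, and the 5637 knockdown libraries lay inside the range of UM-UC-3. In all, both 5637 knockdown libraries were above the other 4 in 9 of the 10 genes, against 30.2% of the genes kept. S100A3, S100A14 and S100P passed the filter of a mean of 1 FPKM only through the 5637 knockdown libraries, where they are high, so that count was partly fixed by the filter. S100A4, also among the 9, was not kept. It was 0.527 FPKM in 5637 sh-LNMAT1#1 against 0.464 FPKM in UM-UC-3 sh-NC, or 5.83 to 11.2 against 6.09 to 11.8 fragments. By fragments its split was thus not clear. Of the 6 genes with a mean of 1 FPKM or more over the other 4 libraries (S100A2, S100A6, S100A10, S100A11, S100A13 and S100A16), 5 showed the split, beside 23.6% of the 12045 genes that passed in this way, a filter added after the values were seen. In bulk libraries such as these, fewer cells expressing a gene and less RNA per cell cannot be told apart.

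The knockdown comparison asked which genes moved with both hairpins. Differences are those of log2(FPKM + 0.5), a scale that shrinks the change of genes at low levels. With 1 library per hairpin and line they have no replicate check and no p. The counts over the 9 genes kept are descriptions, since S100A3, S100A14 and S100P had to be high in the 5637 knockdown libraries to be kept. In UM-UC-3 with sh-LNMAT1#1, 2 of the 9 were at least 2-fold higher than with sh-NC, beside 5.17% of all genes, and 0 were lower, beside 4.97%. The 2 were S100A6 and S100A16, each at a log2 difference of 1.13. With sh-LNMAT1#2, 0 were 2-fold higher and 0 lower, beside 1.86% and 1.33% of all genes, and S100A6 and S100A16 differed by 0.40 and -0.05. The median of the 9 was 0.06 with sh-LNMAT1#1 and -0.05 with sh-LNMAT1#2, beside 0.00 and 0.01 over all genes. None of the 10 genes was thus 2-fold changed in the same direction with both hairpins in UM-UC-3. S100A10 differed by -0.14 and -0.72 with the 2 hairpins and S100A2 by -0.82 and -0.24.

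In 5637, 8 of the 9 were at least 2-fold higher with sh-LNMAT1#1 than in the library labelled sh-NC, beside 18.7% of all genes, and 1, S100A16, was lower, at -1.04, beside 17.5%. With sh-LNMAT1#2, 8 were higher, beside 17.5% of all genes, and 0 were lower, beside 17.2%, with S100A16 at -0.62. The median of the 9 was 1.78 and 2.55 with the 2 hairpins, beside -0.01 and -0.02 over all genes. These counts and medians hold the 3 genes that the filter kept for being high there. Of the 6 genes that passed without the 5637 knockdown libraries, 5 were at least 2-fold higher with each hairpin, beside 12.4% and 11.3% of the genes that passed in this way, and the medians were 1.47 and 1.63, beside -0.15 and -0.15. S100A2 had the greatest differences, 5.39 and 6.26, and S100A11 and S100A13 were the smallest of the 8, at 1.16 and 1.23 and at 1.05 and 1.25. The differences of S100A14 (3.12 and 3.95) and S100P (2.79 and 4.35) are set against values under 3 fragments and depend on the 0.5 added before the logarithm. The levels of epithelial markers given above moved with these differences, and their part in them was not tested.

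**Figure D2:**
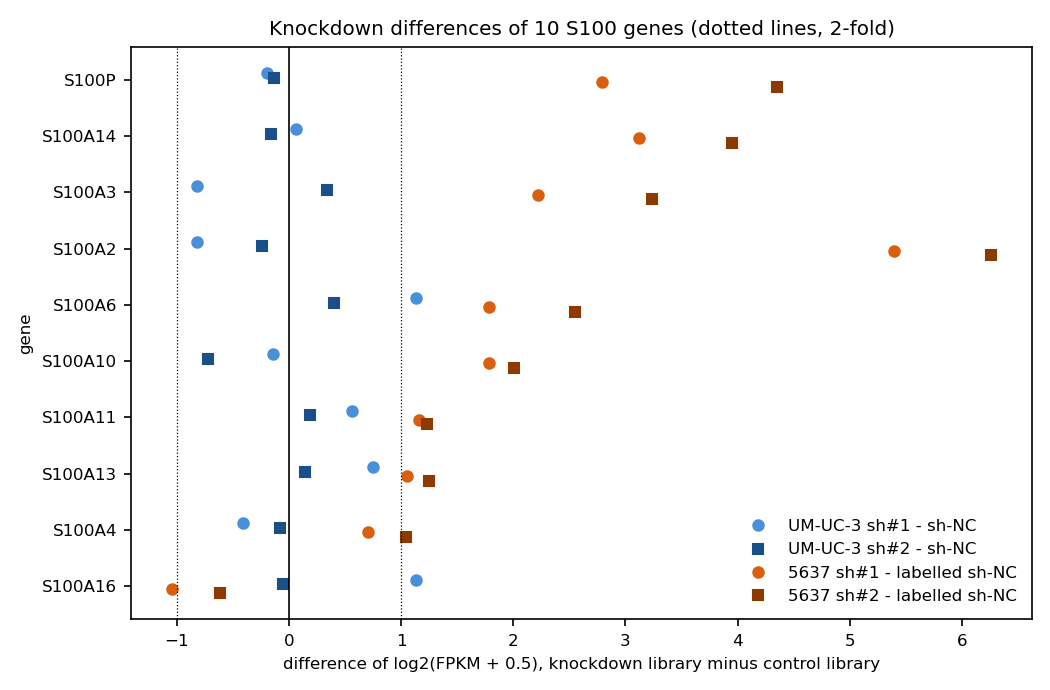
Difference of log2(FPKM + 0.5) between each knockdown library and the sh-NC library of its line (horizontal axis) for the 10 S100 genes (vertical axis), with 1 point per hairpin and line and dotted lines at 2-fold. The UM-UC-3 points lie between -0.82 and 1.13, while the 5637 points, taken against the library labelled 5637 sh-NC, reach 6.26 in S100A2 and are below 0 in S100A16 alone.

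Pooled over both lines, the 4 knockdown libraries were compared with the 2 sh-NC libraries in limma with the line as a covariate. Of the 9 genes, 0 passed an adjusted p of 0.05, beside 0% of all 12716 genes (0 called, with 811 at an unadjusted p under 0.05 and a smallest adjusted p of 0.569). S100A6 had a log2 difference of 1.47 (standard error 0.44, unadjusted p = 0.0167, adjusted p = 0.569 by limma), higher in 4 of 4 knockdown libraries. S100A11 and S100A13 had 0.78 and 0.80 (standard errors 0.28 and 0.30, adjusted p = 0.569 by limma for both) and were likewise higher in 4 of 4. The pooled value of S100A2 was 2.65 with a standard error of 1.35 (adjusted p = 0.569 by limma). Without the library labelled 5637 sh-NC, no 5637 control is left, and the fit gives the difference in UM-UC-3 alone. That difference was -0.53 for S100A2, -0.24 for S100A3, -0.43 for S100A10, -0.05 for S100A14 and -0.17 for S100P. For S100A16 it was 0.54, beside a pooled -0.14, and for S100A6, S100A11 and S100A13 it was 0.77, 0.37 and 0.45. Without UM-UC-3 sh-NC, the fit gives the difference in 5637 alone, with the library labelled 5637 sh-NC as the 1 control left. This was 5.82 for S100A2 and -0.83 for S100A16. For S100A3, S100A14 and S100P its direction was fixed by the filter.

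Whether the knockdown difference itself differed between the lines was tested in limma as an interaction of line and knockdown, again with 1 control library per line. Of the 9 genes 4 passed, beside 18.8% of all genes. They were S100A2 (log2 6.36, adjusted p = 0.00435 by limma), S100A10 (2.32, adjusted p = 0.0251 by limma), S100P (3.73) and S100A14 (3.59), all more positive in 5637. For S100P and S100A14, kept only for being high in the 5637 knockdown libraries, the direction was fixed by the filter, and the values are descriptions. With no filter S100A2 alone passed (adjusted p = 0.0492), with S100A14 at 0.0885, S100A10 at 0.104 and S100P at 0.184, adjusted p by limma. Scaling by the 75th percentile also ended the calls of S100A10 (adjusted p = 0.0501) and S100P (adjusted p = 0.0514), and adding 1 in place of 0.5 ended that of S100P (adjusted p = 0.0667), all by limma. S100A3 (2.97), S100A6 (1.40, adjusted p = 0.176) and S100A16 (-1.38, adjusted p = 0.228) did not pass in limma, nor did S100A11 (0.82) and S100A13 (0.71). With 1 control library per line, the spread comes from the hairpins alone, and all of these values rest on the library labelled 5637 sh-NC, without which no such test could be made.

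The levels of the lines were therefore compared without either control, over the 4 knockdown libraries, in limma with the hairpins of a line standing in for replicates. Of the 9 genes, 7 passed as higher in 5637, beside 18.5% of all genes, and 0 as lower, beside 19.1%. Of these 7, S100A3, S100A14 and S100P were kept only for being high in the 5637 knockdown libraries, so that their direction was fixed by the filter, and 4 of the other 6 genes passed. S100A2 was higher by a log2 of 5.71 (standard error 0.37, adjusted p = 0.000383 by limma), S100A6 by 2.40 (standard error 0.37, adjusted p = 0.00667), S100A11 by 1.17 (adjusted p = 0.00991) and S100A13 by 1.11 (adjusted p = 0.0273), each higher in 2 of 2 5637 libraries. S100A10 missed the threshold at 0.85 (standard error 0.26, adjusted p = 0.0518 by limma), and S100A16 differed by -0.13 with a standard error of 0.42 (adjusted p = 0.829 by limma). The differences of S100A14 (3.52), S100P (3.53) and S100A3 (2.01) are given as descriptions. Tested with no filter, S100A2 (adjusted p = 0.0218) and S100A14 (adjusted p = 0.031) passed by limma, while S100P (0.0713), S100A6 (0.0713), S100A13 (0.112), S100A11 (0.119) and S100A3 (0.17) did not at the adjusted p given. Among the 4 called genes named first, S100A2 and S100A6 stayed past the threshold without 5637 sh-LNMAT1#1, and S100A2 alone without 5637 sh-LNMAT1#2. Without UM-UC-3 sh-LNMAT1#1, S100A10 gained a call at 1.15. With all 6 libraries grouped by label, which puts the library labelled 5637 sh-NC with 5637, 0 of the 9 passed, and S100A2 was at 3.59.

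Of 25 listed partners and receptors, 22 were kept, and in UM-UC-3 0 were at least 2-fold higher with either hairpin, while 1 was lower with sh-LNMAT1#1 and 0 with sh-LNMAT1#2. Against the library labelled 5637 sh-NC, 5 were higher and 2 lower with sh-LNMAT1#1, and 6 higher and 3 lower with sh-LNMAT1#2, with medians of 0.19 and 0.32. Over all genes the shares were 18.7% higher and 17.5% lower with sh-LNMAT1#1 and 17.5% and 17.2% with sh-LNMAT1#2, so the partners' counts of higher genes were near the background. TP63, EZR, MYH10 (a nonmuscle myosin heavy chain) and CTSD (the protease cathepsin D) were at least 2-fold higher with both, and SUGT1 (a cochaperone) and FGF1 at least 2-fold lower. TLR4, a listed receptor that was not kept, was at or under 0.0151 FPKM in the first 4 libraries. It was 1.92 and 2.33 FPKM in the 5637 knockdown libraries. Between the lines over the 4 knockdown libraries, EZR was higher in 5637 by 1.30 (adjusted p = 0.0117 by limma) and ANXA1 by 0.82 (adjusted p = 0.0309). TP63 differed by 4.31, a description, since it too was kept only through the 5637 knockdown libraries. ANXA2 (-0.39, adjusted p = 0.178), CACYBP (0.33, adjusted p = 0.338) and MYH9 (-0.46, adjusted p = 0.147) did not pass in limma.

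Of 11 other S100 genes, 3 were kept (S100A7, S100A8 and S100A9). All 3 passed the filter only because they are high in the 5637 knockdown libraries, so their direction is no result. Along chromosome 1, S100A9 reached 3032 and 2819 FPKM in the 5637 knockdown libraries and stayed at or under 1.004 FPKM in the other 4. Next to it, S100A12 was listed at 0 in the first 4 libraries and was 0.65 and 0.199 FPKM in the 5637 knockdown libraries, and S100A8 was at or under 0.0328 FPKM and then 27.1 and 39.2 FPKM. Farther along, S100A7A, which was not kept, was at or under 0.00863 FPKM in the first 4 and 0.609 and 1.15 FPKM in the 5637 knockdown libraries. S100A7L2 was listed at 0 in all 6, and S100A1, at the far end, was at or under 0.0728 FPKM in all 6. The genes between S100A6 and S100A13 ranged in 5637 sh-LNMAT1#2 from 0.146 FPKM (S100A5) to 114 FPKM (S100A2).

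**Figure D3:**
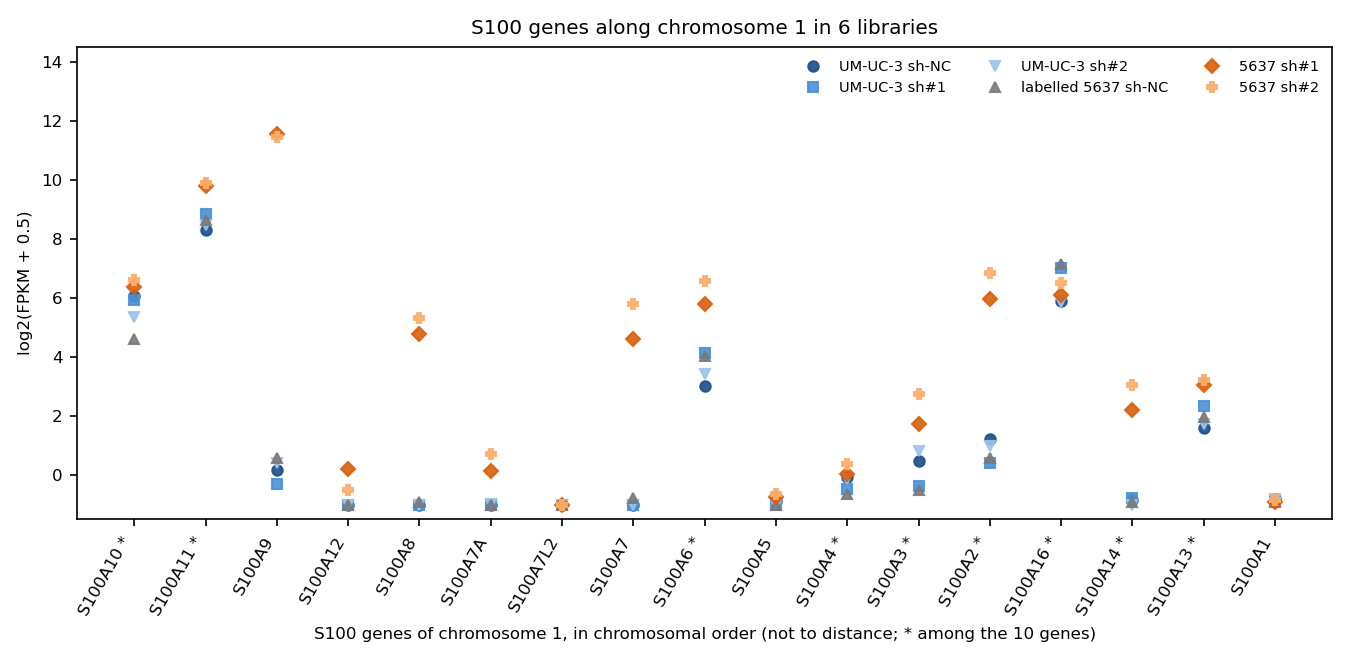
Level as log2(FPKM + 0.5) of the S100 genes of chromosome 1 (vertical axis), set in chromosomal order at equal steps (horizontal axis, stars mark the genes described here), with 1 symbol per library. The 5637 knockdown libraries lie above the other 4 at S100A9, S100A8, S100A7, S100A6, S100A3, S100A2 and S100A14, lie at a similar level at S100A16, and all 6 libraries are near the bottom at S100A7L2, S100A5 and S100A1.

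The 5637 knockdown libraries also differed from each other, a comparison added after the values were seen that uses neither control. All 9 genes kept were higher with sh-LNMAT1#2 than with sh-LNMAT1#1, beside 46.6% of all genes. At 1.5-fold, 5 were higher, beside 4.29% of all genes, and 0 lower, beside 4.55%. S100P differed by a log2 of 1.55 (an FPKM ratio of 3.26), S100A3 by 1.02 (2.2), S100A2 by 0.87 (1.84), S100A14 by 0.83 (1.87) and S100A6 by 0.77 (1.71). S100A16 (0.42), S100A10 (0.23), S100A13 (0.20) and S100A11 (0.07) were under 1.5-fold. The median of the 9 was 0.77, beside -0.02 over all genes. S100P, S100A3 and S100A14 were kept only for being high in these 5637 knockdown libraries, so the counts and the median are descriptions. Of the 6 genes that passed without these libraries, S100A2 and S100A6 were past 1.5-fold. The share over all genes that passed in that way was not computed, so this count has no background beside it. Each hairpin is 1 library, so this difference has no replicate check. LINC01296 was 0.98 lower on the log2 scale with sh-LNMAT1#2 than with sh-LNMAT1#1.

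**Figure D4:**
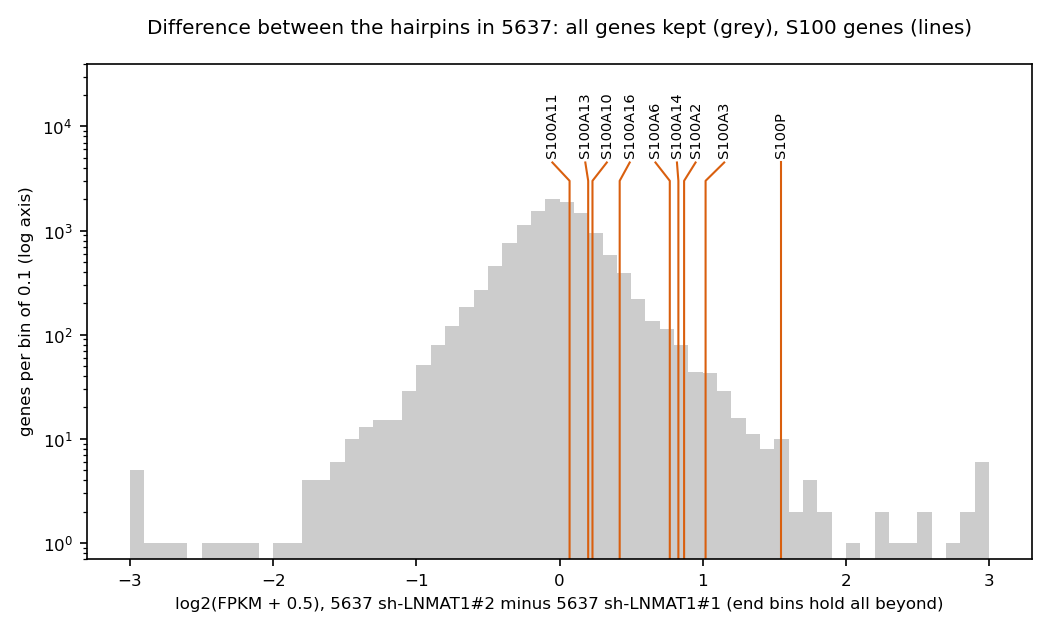
Number of genes (vertical log axis) per 0.1 step of the log2(FPKM + 0.5) difference between 5637 sh-LNMAT1#2 and 5637 sh-LNMAT1#1 (horizontal axis) for the 12716 genes kept, with orange lines at the 9 S100 genes kept. All 9 lines lie to the right of 0, from 0.07 (S100A11) to 1.55 (S100P), and the end bins hold all genes beyond them.

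Of 18 listed genes of the epidermal differentiation complex, a list that also holds S100A7, S100A8 and S100A9, 17 were in the table and 6 were kept (IVL, SPRR1B, SPRR2A, S100A7, S100A8 and S100A9). None of the 6 reached a mean of 1 FPKM over the other 4 libraries, so that they were kept only for being high in the 5637 knockdown libraries. With sh-LNMAT1#2 against sh-LNMAT1#1, 4 of the 6 were at least 1.5-fold higher, beside 4.29% of all genes, and 0 lower, beside 4.55%. The 4 were SPRR2A, SPRR1B, S100A7 and IVL, while S100A8 differed by a log2 of 0.53 and S100A9 by -0.11. SPRR2A, a cornified envelope precursor, was listed at 0 in the first 4 libraries and was 3.25 and 46.1 FPKM in 5637 sh-LNMAT1#1 and sh-LNMAT1#2. Of 7 fused S100-type genes, large epidermal proteins with an S100 domain, 1 was kept, the filaggrin gene FLG, at 0.419 to 0.542 FPKM in the first 4 libraries and 2.25 and 2.01 FPKM in the 5637 knockdown pair. FLG too was kept only for being high in that pair, so that its direction is no result.

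The profiles over the 6 libraries most like those of the 3 widest-ranging genes were found by the root mean square difference of centred log2(FPKM + 0.5). For S100A2 they were CALB1 (0.28), CDKN2A (0.29) and RHOD (0.29). For S100P they were C1orf116 (0.14), SERPINB3 (0.17) and EDN1 (0.21). For S100A14 they were PGBD5 (0.07), HS3ST1 (0.09) and IVL (0.10), the last of which encodes involucrin and was 3.97 and 8.41 FPKM in the 5637 knockdown libraries. These genes were picked for their likeness, so that they share the split between the 5637 knockdown libraries and the rest by choice. They stayed at or under 0.107 FPKM in the first 4 libraries and were kept only for being high in the 5637 knockdown pair.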

How the data were processed

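Poly(A) libraries (TruSeq Stranded mRNA) were made from TRIzol-extracted RNA, and the submitters' processing notes name HISAT2 and hg38, without versions. The authors deposited FPKM values per gene. The counting program, its annotation and its treatment of reads fitting several genes are not given in the sources used here. Of 50869 rows, 2 from a broken line were left out, and 0 value columns had no sample. Depth was recovered from 14649 single-exon genes, in which 99.95% to 100.0% of values up to 20 fragments were whole within 0.05. Positions were read from GENCODE release 29, where 47483 genes had the deposited position, and upstream sequences from RefSeq. Because FPKM are not counts, log2(FPKM + 0.5) was tested with limma 3.58.1 (trend, R 4.3.3) over the 12716 genes whose mean was 1 FPKM or more, with Benjamini-Hochberg adjustment, after a check on simulated data. No hairpin has a replicate culture within a line, so p-values measure the spread between these libraries, in which different hairpins stand in for replicates. The genes and all lists were chosen with earlier results of these data known. All 10 S100 genes were named. A listed gene was named when 2-fold changed in 1 direction with both hairpins of a line or when a stated partner, and the other listed genes printed were chosen after their values were seen. The reference gene ACTB also met this rule, with log2 differences of 1.80 and 1.46 in 5637 sh-LNMAT1#1 and sh-LNMAT1#2, and is named only here. Alternatives covered the added constant, scaling, filter, threshold, trend, covariates and each library left out.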

Additional observations from a re-analysis of the deposited data

Results flagged for a closer look

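In 4 of the 9 S100 genes kept, beside 18.8% of all genes, the knockdown difference in 5637 differed from that in UM-UC-3 by the limma interaction test. The difference of differences was 6.36 on the log2 scale for S100A2, 3.73 for S100P, 3.59 for S100A14 and 2.32 for S100A10, each more positive in 5637. The control on the 5637 side is the library labelled 5637 sh-NC, which was nearer to UM-UC-3 in these genes, and its part in the differences was not tested. S100A14 and S100P were under 3 fragments in that control and in all UM-UC-3 libraries, and both were kept only for being high in the 5637 knockdown libraries, so that their direction was fixed by the filter. Of the 6 genes that passed the filter without the 5637 knockdown libraries, 2 were called. Each line has 1 control library, and with no filter S100A2 alone passed.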

How the results depend on the processing

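Counts of S100 genes changed 2-fold depended on the constant, the filter and the threshold. In UM-UC-3 with sh-LNMAT1#1, 2 became 4 with a constant of 0.1, 5 at 1.5-fold and 0 at 3-fold, and with sh-LNMAT1#2, 0 became 1 at 1.5-fold. With a filter of 5 FPKM, which leaves 5 of the 10 genes, the counts in 5637 fell from 9 to 5 and from 8 to 4, and that between the hairpins in 5637 from 5 to 2, as it did at 2-fold. Requiring a mean of 1 FPKM over the libraries other than 5637 knockdown, added after the data were seen, left 6 of 9 and 5 of 8. Pooled over lines, leaving out 1 library at a time gave 0 to 3947 genes and 0 to 7 of the S100 genes called. The pooled log2 ranged from -0.53 to 5.82 in S100A2, -0.24 to 2.73 in S100A3, -0.43 to 1.89 in S100A10, -0.05 to 3.54 in S100A14, -0.83 to 0.54 in S100A16, -0.17 to 3.57 in S100P, 0.77 to 2.17 in S100A6, 0.37 to 1.20 in S100A11 and 0.45 to 1.15 in S100A13. Between the lines, 4779 genes became 2191 with the filter of 5 FPKM and 2 with all libraries by label, and 1248 to 5172 with 1 library left out. The 7 S100 genes called became 2 with no filter, 3 with the filter of 5 FPKM, 0 by label and 3 to 7 with 1 library left out. S100A16 moved from -0.13 to 0.05 with UM-UC-3 sh-NC added, 0.33 by label, and from -0.72 to 0.46 with 1 library left out. In the interaction, 2389 genes became 889 with the filter of 5 FPKM, and the 4 S100 genes became 2 with 75th-percentile scaling, 1 with no filter and 2 with the filter of 5 FPKM, with S100P lost also with a constant of 1. Scaling by the 75th percentile moved the median of all genes between the lines from -0.052 to -0.152 and the calls from 2349 higher and 2430 lower to 2048 and 2702. The 2 hairpin numbers taken as a block gave 5143 genes and 8 S100 genes between the lines. That block pairs the lines by hairpin, and with it S100A10 also passed (0.85, adjusted p = 0.0367 by limma). No pairing by replicate was possible because each group holds 1 library and the labels give no replicate numbers. With 1 library left in a group, that library is assumed to vary like the other group. Causes of these changes were not tested, except that a filter changes which genes are tested. Of the values of single genes under an alternative, 184 kept direction and side of the threshold, 21 fell below it, 9 rose past it and 12 reversed. These counts cover the pooled and line comparisons and leave out the interaction, whose lost calls are given above. Depth limits S100A14 and S100P outside the 5637 knockdown libraries, where they were under 3 fragments. S100A3 and S100A4 were possibly under 3 fragments for the library labelled 5637 sh-NC, at 2.7 to 4.45 and 1.59 to 3.07. So was S100A4 in UM-UC-3 sh-LNMAT1#1, at 2.65 to 5.11.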
